A study of Mus musculus with 16 samples.

Results

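The 10 genes described here are markers by which osteoclasts, the cells that resorb bone, are commonly recognised: Acp5, Ctsk, Mmp9, Ocstamp, Dcstamp, Atp6v0d2, Calcr, Oscar, Nfatc1 and Itgb3. Stromal cells of mouse bone marrow had been grown under osteogenic conditions, and the question here is whether the cultures held osteoclasts. The members are all probes whose platform gene symbol, current or former, is one of these names: 17 of the 25697 probes on the array, with 6 probes for Nfatc1, 3 for Calcr and 1 for each other gene. No probe was found under a former symbol. Total RNA of 8 Hdac3 CKO cultures and 8 wild type cultures was hybridized to an Illumina expression BeadChip after 7 days of osteogenic culture. In the Hdac3 CKO cultures Cre recombinase under the Osterix promoter (Osterix1-Cre) deletes the histone deacetylase gene Hdac3 in osteoblast-lineage cells. All cultures came from a mixed CD1/C57BL6 background. The labels do not say whether the wild type animals carried Cre, how many animals gave the cells or whether marrow was pooled, so a p-value here reflects array-to-array spread alone.

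Osteoclasts form when monocytes and macrophages receive the growth factor M-CSF and the ligand RANKL, which stromal cells and osteoblasts supply. RANKL acts through its receptor RANK, and adaptor proteins with immunoreceptor motifs (Fcer1g and Tyrobp), engaged by receptors such as OSCAR and TREM2, give a costimulatory signal. Together these induce NFATc1, the transcription factor that switches on the osteoclast programme. The precursors then fuse through DC-STAMP and OC-STAMP, attach to bone by the integrin of which Itgb3 encodes the beta subunit, acidify the bone surface with a proton pump and degrade the matrix with cathepsin K and other enzymes. Osteoblasts and osteoclasts come from different lineages, and stromal cultures from marrow commonly carry macrophages along. Several of the markers are not restricted to osteoclasts: Ctsk is also transcribed by mesenchymal cells, Mmp9 by neutrophils and macrophages, Acp5 by macrophages, and Itgb3 by platelets and their precursors.

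Arrays are named by genotype and title number, such as KO15 and WT13. The title numbers fall into 5 runs of neighbouring numbers, each with as many Hdac3 CKO as wild type arrays: run 1 (KO7 and WT5), run 2 (KO15, KO16, WT13 and WT14), run 3 (KO23, KO24, WT21 and WT22), run 4 (KO32 and WT30) and run 5 (KO46, KO47, WT42 and WT44). What the numbers stand for is not stated. The intensities had been quantile normalized, with a median of 97.1 to 97.2 on every array, and were analysed on the log2 scale. Hdac3, the targeted gene, had a lowest, median and highest log2 intensity of 10.16, 10.23 and 10.38 on the Hdac3 CKO arrays. On the wild type arrays these were 10.29, 10.44 and 10.52, with a difference of means of -0.17 (SE 0.045). That difference did not pass an adjusted p under 0.05 over all probes (limma adjusted p = 0.932, and 0.162 with the runs as a block). By run it lay between -0.32 (run 2) and -0.019 (run 5). For Hdac3 alone the exact permutation p, two-sided and not adjusted, was 0.00249 over all 12870 arrangements of the arrays. Over the 864 arrangements that keep the genotypes balanced in every run it was 0.00463. WT13 and WT14 stood apart from the other 14 arrays. The Y-linked gene Eif2s3y was at 5.89 and 6.17 there and between 8.28 and 9.89 elsewhere. Genotype differences that move by over 1.5 times when run 2 is left out, with the other runs as a block, are therefore also given in that form.

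The files hold no detection calls, so the level of a probe without its transcript was read from the 1143 probes for olfactory receptor genes, which marrow and stromal cells are taken not to transcribe. Their median was log2 6.20 on every array and their 95th percentile 6.54 to 6.60. A probe above that percentile is called above the olfactory receptor level. Of all probes 51.1% were above it on at least 8 of the 16 arrays and 42.8% on all 16. Among the members 8 of 17 probes, standing for 5 of 10 genes (Acp5, Ctsk, Mmp9, Oscar and Nfatc1), were above it on at least 8 arrays, close to the share of all probes. Probes differ in how brightly they bind, so these levels tell a probe from background and do not rank genes by transcript amount.

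Dcstamp, Ocstamp, Atp6v0d2 and Calcr were not detectable on any array. Dcstamp, which encodes the fusion protein DC-STAMP, had a lowest, median and highest log2 intensity of 6.22, 6.24 and 6.46 on the Hdac3 CKO arrays, against 6.16, 6.26 and 6.41 on the wild type arrays. Its partner in fusion, Ocstamp, had 6.13, 6.23 and 6.32 on the Hdac3 CKO arrays, against 6.16, 6.25 and 6.51 on the wild type arrays. Both probes lay within the olfactory receptor range on all 16 arrays, and the genotypes overlapped throughout. Atp6v0d2, a subunit of the vacuolar proton pump that is enriched in osteoclasts, had 6.05, 6.18 and 6.28 on the Hdac3 CKO arrays, against 6.08, 6.21 and 6.27 on the wild type arrays. Calcr encodes the receptor through which the hormone calcitonin inhibits osteoclasts. Its 3 probes lay between 5.95 and 6.31 on the Hdac3 CKO arrays and between 5.98 and 6.34 on the wild type arrays. None of these 6 probes exceeded the olfactory receptor level on any array, and their means over the 16 arrays lay between 0.11 below and 0.070 above the median of the olfactory receptor probes. In RNA of a whole culture, fewer cells of a type and less RNA per cell cannot be told apart, and a small number of osteoclasts would be diluted by the other cells. The transcripts were therefore not detectable with these probes, which is not the same as absent.

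Oscar, a collagen-binding receptor that signals through the adaptor Fcer1g, is counted here with Ocstamp, Dcstamp, Atp6v0d2 and Calcr as defining osteoclasts, and of these 5 genes it alone passed the olfactory receptor level. It was above it on 8 of 8 Hdac3 CKO and 8 of 8 wild type arrays, by a small margin: above the 99th percentile it was on 5 of the 16. The lowest, median and highest values were 6.70, 6.74 and 6.86 on the Hdac3 CKO arrays, against 6.58, 6.66 and 6.91 on the wild type arrays. The arrays hardly differed, with an SD of 0.10 over all 16. For comparison, the median SD over arrays was 0.19 among probes brighter than the median probe and 0.12 among all probes.

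**Figure D1:**
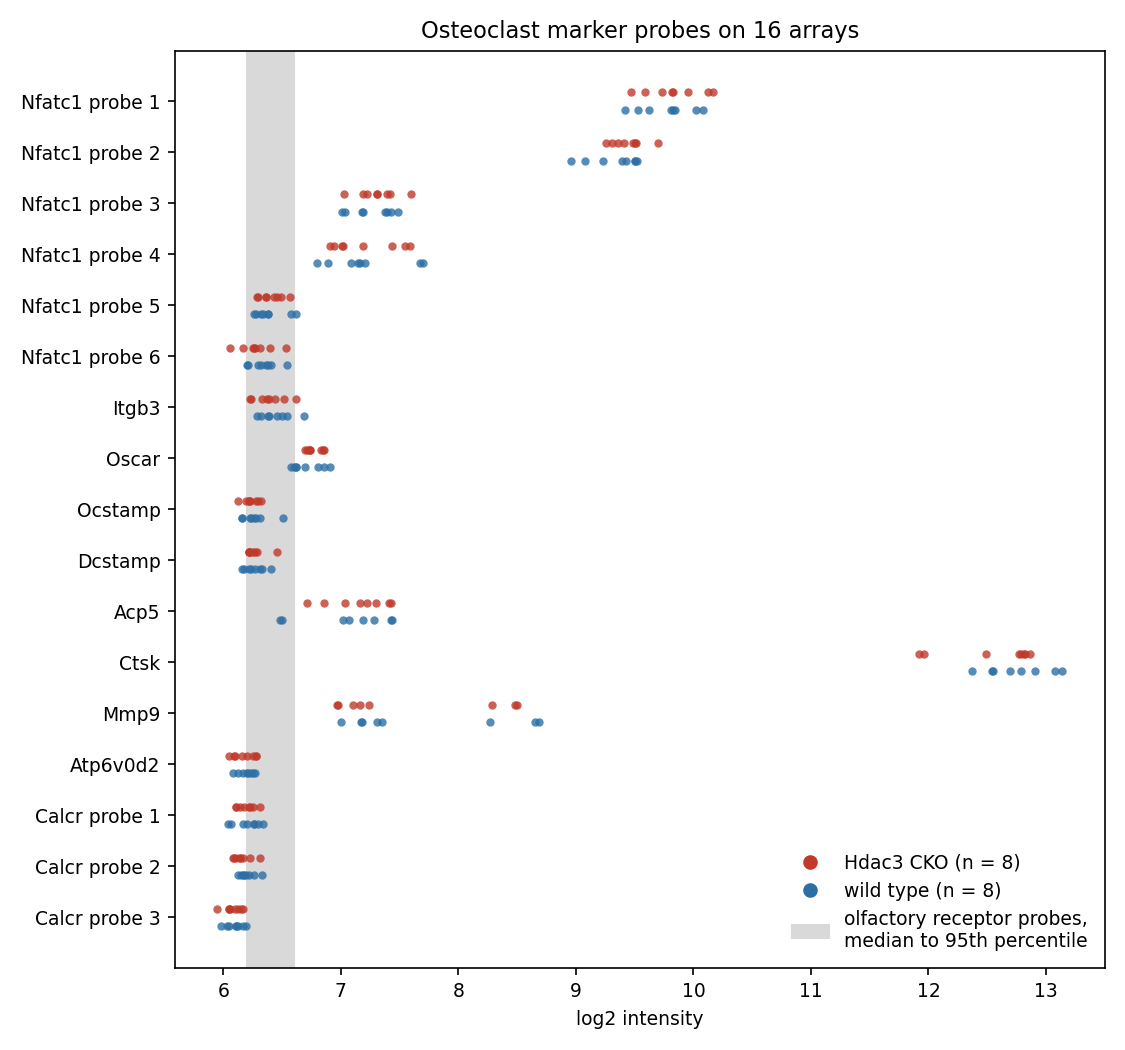
Log2 intensity (x axis) of the 17 osteoclast marker probes on 8 Hdac3 CKO (red, upper row of each probe) and 8 wild type arrays (blue, lower row), 1 point per array, with probes of a gene numbered from bright to dim. The grey band runs from the median of the olfactory receptor probes (6.20) to their highest 95th percentile (6.60): Ocstamp, Dcstamp, Atp6v0d2 and all Calcr probes lie in or below it, and Ctsk lies between 11.92 and 13.14.

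Nfatc1 was well above background by some of its probes and not by others. The brightest probe had a lowest, median and highest log2 intensity of 9.47, 9.83 and 10.17 on the Hdac3 CKO arrays, against 9.42, 9.82 and 10.08 on the wild type arrays. All 3 probes annotated to 1 RefSeq transcript of the gene were above the olfactory receptor level on 16 of 16 arrays. Of the 3 probes annotated to another transcript, 1 was above it on 16 arrays, 1 on 2 arrays and 1 on 0 arrays. The probe positions were not used here, so which exons differ is not known. Itgb3, the integrin beta subunit, had 6.23, 6.38 and 6.62 on the Hdac3 CKO arrays, against 6.29, 6.43 and 6.69 on the wild type arrays. It was above the olfactory receptor level on 1 array of each genotype.

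The 3 secreted or lysosomal enzymes were all detected. Ctsk, which encodes the collagen-degrading protease cathepsin K, was above the olfactory receptor level on 16 of 16 arrays, by 6.46 over the olfactory receptor median on average. Its lowest, median and highest values were 11.92, 12.78 and 12.86 on the Hdac3 CKO arrays, against 12.37, 12.74 and 13.14 on the wild type arrays. Acp5 encodes tartrate-resistant acid phosphatase, the enzyme behind the TRAP stain for osteoclasts. It had 6.71, 7.19 and 7.43 on the Hdac3 CKO arrays, against 6.48, 7.13 and 7.44 on the wild type arrays. Its 14 arrays above the olfactory receptor level were all but WT13 and WT14, where it stood at 6.50 and 6.48. Mmp9, which encodes the gelatinase MMP-9, had 6.97, 7.20 and 8.50 on the Hdac3 CKO arrays, against 7.00, 7.33 and 8.69 on the wild type arrays. In each genotype its values fell into a low and a high set that did not overlap, as described by run below.

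Promoter windows of 4 members are in the RefSeq promoter table used here (GRCm38.p6). Those of Ctsk, detected on all arrays by a wide margin, and Oscar, close to the olfactory receptor level, are printed because both genes are known targets of NFATc1 and of the myeloid factor PU.1 and each has a single start in the table. Each window holds the 250 bases before the start, 5′ to 3′ on the gene's strand. Capitals mark the NFAT core GGAAA and the PU.1 core GAGGAA on either strand (TTTCC and TTCCTC on the other). The 2 motifs overlap in the run GAGGAAA, which neither window holds.
Ctsk, chr3:95498960-95499209, plus strand: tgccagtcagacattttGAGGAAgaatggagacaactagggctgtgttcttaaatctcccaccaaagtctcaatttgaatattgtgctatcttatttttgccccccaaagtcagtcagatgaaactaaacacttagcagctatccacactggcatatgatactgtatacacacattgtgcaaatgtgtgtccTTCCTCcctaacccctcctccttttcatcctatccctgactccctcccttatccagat
Oscar, chr7:3616158-3616407, minus strand: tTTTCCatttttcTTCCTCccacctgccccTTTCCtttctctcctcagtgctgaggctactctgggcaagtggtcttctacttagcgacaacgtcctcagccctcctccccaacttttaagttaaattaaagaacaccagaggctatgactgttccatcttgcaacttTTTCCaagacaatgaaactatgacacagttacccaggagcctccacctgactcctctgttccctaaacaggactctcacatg
The Ctsk window held 0 NFAT cores and 2 PU.1 cores, which begin 233 and 58 bases before the start. The Oscar window held 3 NFAT cores, which begin 249, 220 and 82 bases before the start, and 1 PU.1 core, at 237 bases. Among the 32851 windows that were searched, 55.6% held an NFAT core and 23.3% a PU.1 core. These matches describe the letters and are not binding sites shown by these data.

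No member differed between the genotypes past the threshold of an adjusted p under 0.05 over all 25697 probes. Hdac3, the targeted gene, did not pass it either. Without a block limma called 0% of all probes (0 probes, with 1218 at an unadjusted p under 0.05, and 0 by the rank sum test with 1187 unadjusted), and the adjusted p of the member probes ran from 0.932 to 0.999. With the runs as a fixed block limma called 0.218% of all probes and 0 of the 17 member probes, 1 of which, Ctsk, had an unadjusted p under 0.05. Taking the brightest probe of each gene, 4 members were higher and 6 lower in Hdac3 CKO cultures, where 48.7% of all probes were higher. The median log2 difference of the members was -0.015, beside -0.0023 over all probes. Without run 2, 6 members were higher and 4 lower (median 0.006). For the 7 probes of the defining genes, the 95% intervals of the difference lay between -0.13 and 0.17 on the log2 scale without a block (0.911-fold to 1.12-fold) and between -0.14 and 0.18 with it (0.906-fold to 1.13-fold). Intensities near background compress such differences, so these intervals hold for the probe signal and not for the transcript.

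The values of the detected members follow. Ctsk averaged 12.56 ± 0.39 in Hdac3 CKO and 12.76 ± 0.27 in wild type cultures (SD, n = 8 each), a difference of -0.20 (0.868-fold). The 95% interval was -0.53 to 0.12 without a block and -0.37 to -0.039 with the runs as a block (limma adjusted p = 0.932 and 0.317). Its exact permutation p, two-sided, was 0.253 over all 12870 arrangements of the arrays and 0.0486 over the 864 that keep the genotypes balanced in every run. That value is not adjusted for the 10 members so tested, and Ctsk was lower in the Hdac3 CKO cultures of 3 of 5 runs. Without run 2 and with the block the Ctsk difference was -0.18 (limma adjusted p = 0.824). Mmp9 was lower in Hdac3 CKO in 5 of 5 runs, by 0.029 to 0.21, but did not pass with the runs as a block (difference -0.11, SE 0.061, limma adjusted p = 0.524, exact permutation p = 0.109 within runs). Acp5 had a difference of 0.090 (SE 0.066 with the block, limma adjusted p = 0.677) and was higher in 4 of 5 runs, and without run 2 it was 0.022. That of Nfatc1 was 0.067 by the brightest probe (SE 0.10, limma adjusted p = 0.875) and 0.15 without run 2. By its other probes it was between -0.056 and 0.12, and between -0.0055 and 0.18 without run 2. Of the 17 member probes 0 passed without run 2.

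**Figure D2:**
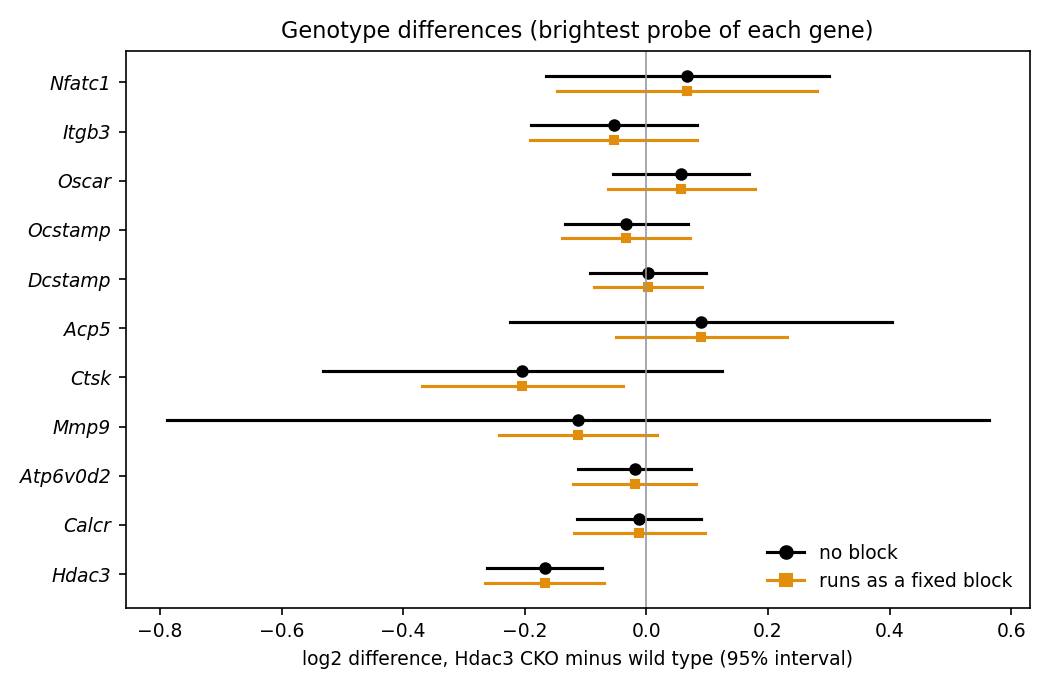
Difference in mean log2 intensity, Hdac3 CKO minus wild type (x axis), for the brightest probe of each member and of Hdac3, with 95% intervals from limma without a block (black circles) and with the runs as a fixed block (orange squares), n = 8 arrays per genotype. The Mmp9 interval runs from -0.79 to 0.56 without the block and from -0.24 to 0.017 with it, and Ctsk lies apart from 0 only with the block (-0.37 to -0.039).

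Mmp9, Acp5, Ctsk and 1 probe of Nfatc1 differed between runs. In limma's F-test of the 5 runs, with genotype in the model, 20.1% of all probes passed. Among the members 4 of 17 probes passed, 1 each of Acp5, Ctsk, Mmp9 and Nfatc1, a share near that of all probes. Mmp9 had mean log2 intensities of 6.98, 7.17 and 7.21 in runs 1, 2 and 3 and of 8.58 and 8.43 in runs 4 and 5 (adjusted p = 1.57e-08). Every array of runs 4 and 5 stood at 8.27 or above and every other array at 7.35 or below, in both genotypes. Without runs 4 and 5 the remaining runs spanned 0.23 and Mmp9 did not pass (adjusted p = 0.263).

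Beside the Mmp9 difference, other marker lists also differed by run. Of 14 measured macrophage markers all were above the olfactory receptor level on at least 8 arrays. Their mean was 11.24 and 11.12 in runs 4 and 5, against 10.56, 10.64 and 10.79 in runs 1, 2 and 3. The macrophage markers did not move as one. Cx3cr1 stood at 9.72 and 9.30 in runs 4 and 5, against 7.13, 6.85 and 7.79 in runs 1, 2 and 3. Cd14 went the other way, with 10.91 and 11.01 in runs 4 and 5, against 11.69, 11.63 and 12.23. Fcgr1 was lowest in run 5, at 7.48. Of 10 neutrophil markers 4 were above the olfactory receptor level on at least 8 arrays, and Retnlg and Cxcr2 were above it on none. The neutrophil mean was 6.72 in both run 4 and run 5, against 7.01, 7.07 and 7.00 in runs 1, 2 and 3. The neutrophil collagenase gene Mmp8 went the other way from its list, with 6.84 and 6.92 in runs 4 and 5 and 6.42, 6.31 and 6.48 in runs 1, 2 and 3. The part of these cells in the Mmp9 difference was not tested.

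Ctsk and Acp5 differed between runs in other ways. Ctsk was lowest in runs 4 and 5, at 12.43 and 12.25, and stood at 12.84, 12.97 and 12.78 in runs 1, 2 and 3 (limma adjusted p = 0.00104). Without runs 4 and 5 it did not pass (adjusted p = 0.284). Acp5 was lowest in run 2, at 6.64, against 7.03, 7.34, 7.30 and 7.25 in runs 1, 3, 4 and 5 (adjusted p = 2.70e-04). Without WT13 and WT14 the adjusted p was 0.0178 for Acp5, 0.00855 for Ctsk and 1.68e-07 for Mmp9. Of the osteoblast and stromal markers 6 of 8 were above the olfactory receptor level on at least 8 arrays. Their mean was 10.52 in run 2, against 9.89, 9.31, 9.40 and 9.31 in runs 1, 3, 4 and 5. Among them Bglap stood at 10.06 in run 2, against 7.65, 6.64, 7.79 and 7.91. Sp7 and Pdpn were not highest in run 2, with 11.57 and 12.05 there, against 11.80 and 12.48 in run 1. The part of the osteoblast and stromal markers in the differences of Ctsk and Acp5 was not tested. For Nfatc1 the probe that passed was the fourth in brightness (adjusted p = 2.70e-04), with a mean of 7.63 in run 3 and between 6.97 and 7.33 in the other runs. The brightest Nfatc1 probe, with 9.72 to 10.07, did not pass (adjusted p = 0.524). Ocstamp, Dcstamp, Atp6v0d2, Calcr, Oscar and Itgb3 had adjusted p from 0.345 (Dcstamp) to 0.940 (Oscar) by the brightest probe.

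**Figure D3:**
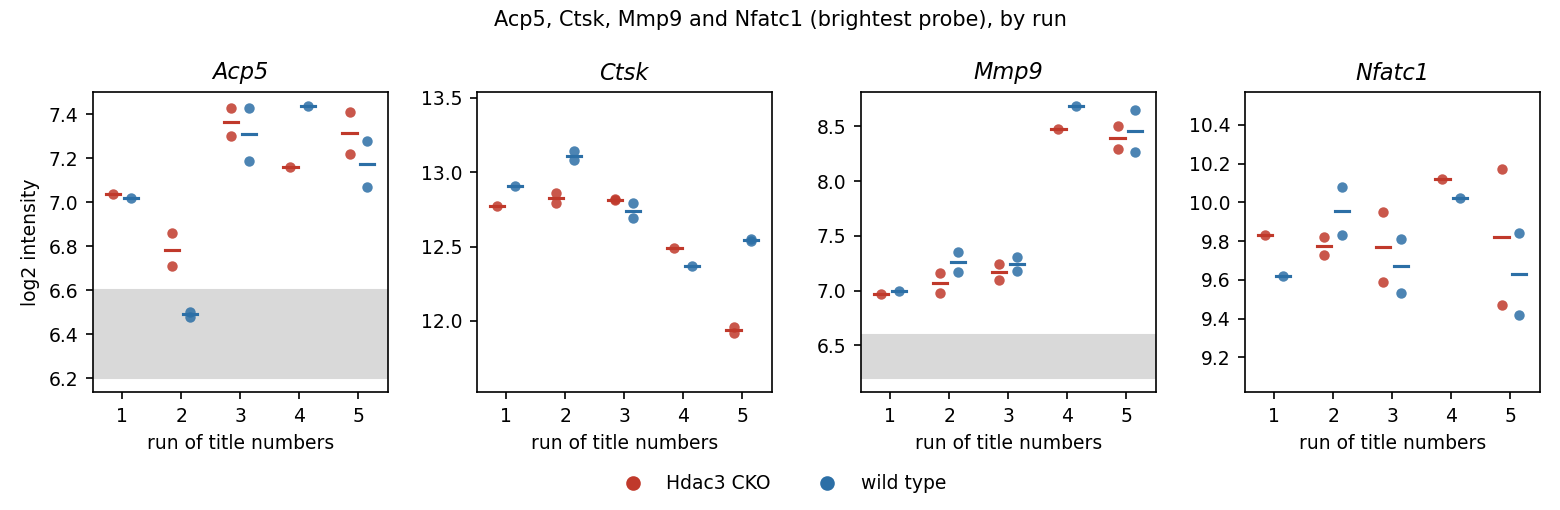
Log2 intensity (y axis, a separate range in each panel) of Acp5, Ctsk, Mmp9 and the brightest Nfatc1 probe in the 5 runs of title numbers, 1 point per array, Hdac3 CKO in red to the left of wild type in blue, with bars at the means. The grey band is that of the olfactory receptor probes; Mmp9 lies at 8.27 or above in runs 4 and 5 only, and Acp5 reaches the band only in WT13 and WT14.

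Whether the genotype difference itself varied between runs was tested with the interaction of genotype and run, in which 0.494% of all probes and 0 of the 17 member probes passed. Ctsk came nearest among the members (limma adjusted p = 0.0914, and 0.0524 in runs 2, 3 and 5 alone, which hold 2 arrays of each genotype). With the lowest intensity subtracted the adjusted p was 0.608. In run 5 Ctsk stood at 11.92 and 11.96 in KO46 and KO47, against 12.54 and 12.55 in WT42 and WT44. In run 2 it stood at 12.79 and 12.86 in KO15 and KO16, against 13.08 and 13.14 in WT13 and WT14. The difference of the Ctsk means was -0.14, -0.28 and -0.60 in runs 1, 2 and 5, and 0.075 and 0.12 in runs 3 and 4. The macrophage marker mean was higher in Hdac3 CKO in 5 of 5 runs, and in runs 2 and 5 it was 10.98 and 11.22 in Hdac3 CKO, against 10.31 and 11.01 in wild type. Beyond the genotype fit with this mean as a covariate, described at the end, its part in the Ctsk values was not tested.

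Among the genes by which precursors receive osteoclast signals, those of RANK and of 2 adaptors were detected on most or all arrays. The receptor gene for M-CSF, Csf1r, was not analysed here. Syk, a kinase gene downstream of the adaptors, was above the olfactory receptor level on 3 arrays, and the scaffold gene Gab2 on 0. Tnfrsf11a, which encodes the RANKL receptor RANK, had a lowest, median and highest log2 intensity of 9.07, 9.24 and 9.31 on the Hdac3 CKO arrays, against 8.25, 9.08 and 9.45 on the wild type arrays. The lowest 2 were WT13 and WT14, and no array was near the olfactory receptor level. The adaptor gene Tyrobp had 10.85, 11.03 and 11.50 on the Hdac3 CKO arrays, against 10.14, 11.06 and 11.72 on the wild type arrays. Fcer1g, the adaptor through which OSCAR signals, had 11.73, 12.07 and 13.02 on the Hdac3 CKO arrays, against 6.12, 12.27 and 13.24 on the wild type arrays. Its 2 low values were again WT13 and WT14, at 6.20 and 6.12, within the olfactory receptor range, and no other array was below 11.73. Oscar itself stood at 6.91 and 6.62 on these 2 arrays, of which WT13 was the highest of all 16. Among the ligands, chosen after their values were seen, the M-CSF gene Csf1 was above the olfactory receptor level on 16 arrays and the RANKL gene Tnfsf11 on 15. Tnfsf11 had a lowest, median and highest value of 6.45, 7.01 and 7.47 on the Hdac3 CKO arrays, against 6.81, 7.10 and 7.35 on the wild type arrays. Tnfrsf11b, which encodes the RANKL decoy receptor osteoprotegerin, was above the level on 16 arrays.

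**Figure D4:**
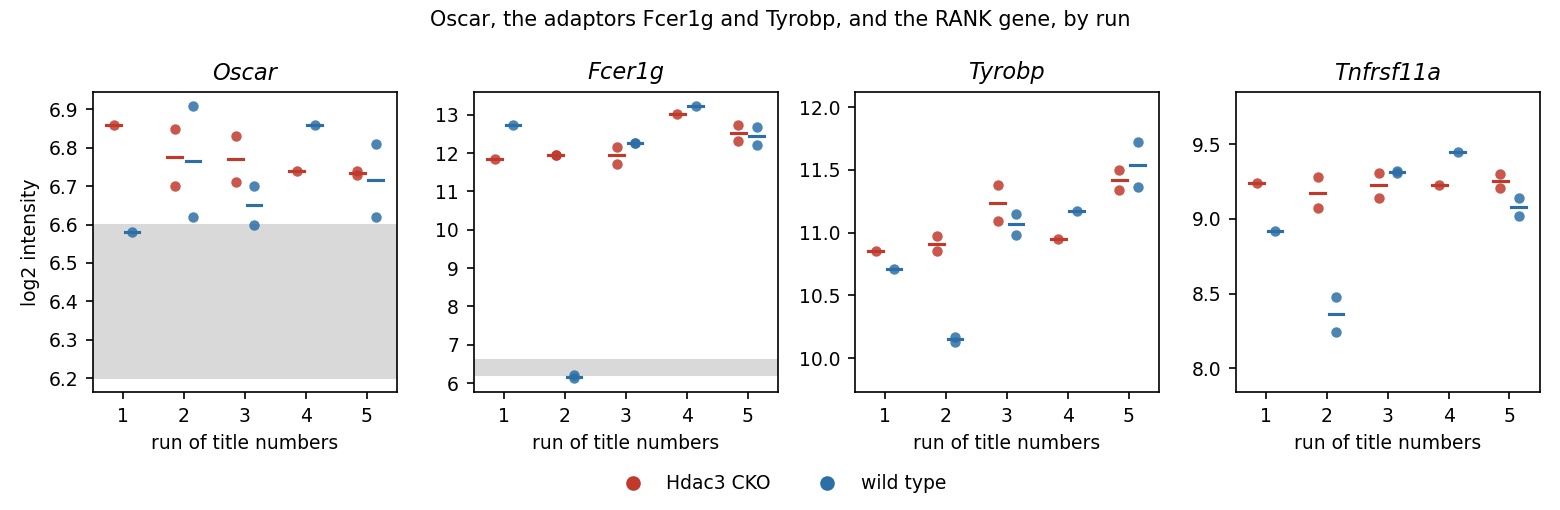
Log2 intensity (y axis, a separate range in each panel) of Oscar, the adaptor genes Fcer1g and Tyrobp and the RANK gene Tnfrsf11a in the 5 runs, 1 point per array, Hdac3 CKO in red to the left of wild type in blue, with bars at the means and the olfactory receptor range in grey. The Fcer1g values of WT13 and WT14 are 6.20 and 6.12, and all others are at least 11.73.

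By the brightest probe of each gene, no gene in the wider osteoclast lists passed between the genotypes, with or without the block. Over all their probes 1 passed with the block, a dimmer probe of Traf6, which encodes the adaptor that carries the RANK signal. That probe had a lowest, median and highest value of 6.48, 6.97 and 7.78 on the Hdac3 CKO arrays, against 6.05, 6.54 and 7.37 on the wild type arrays. The genotypes overlapped, and the difference was 0.42 (SE 0.069, limma adjusted p = 0.0251 with the block and 0.932 without it). Without run 2 its adjusted p was 0.0632, and the other 2 Traf6 probes, the brightest among them, had differences of 0.054 and 0.075 and did not pass. Of all probes 48.7% had higher means in Hdac3 CKO cultures, and no test was made over a list. In RANK and costimulatory signalling, 11 of 13 measured genes were above the olfactory receptor level on at least 8 arrays. Of these 13 genes 12 had higher means in Hdac3 CKO cultures (median log2 difference 0.18). The smallest p-values with the block belonged to the exchange factor gene Vav3 (0.22, limma adjusted p = 0.323), the receptor gene Trem2 (0.18, 0.393) and Tnfrsf11a (0.24, 0.415). Without run 2 these 3 differences were 0.060, 0.12 and 0.044, and 11 of the 13 genes were higher with a median of 0.044. Of the transcription factor genes 11 of 13 were above the level and 12 had higher means (median 0.089), led by Nfkb2 (0.15, adjusted p = 0.290), Irf8, which restrains osteoclast formation (0.24, 0.299), and Tfe3 (0.16, 0.319). Without run 2, 9 of the 13 were higher (median 0.082) and Irf8 stood at 0.13. The genes of this list not above the level were Mitf, which passed it on 2 arrays, and Prdm1, on 0 by either probe. Acid secretion and ruffled border genes were above the level in 10 of 11 cases, and 9 had higher means (median 0.092). The gene not above the level was Car2, which passed it on 1 array by its brightest probe and on 0 by its other probe. Clcn7, the chloride transporter gene that acts beside the proton pump, had a difference of 0.23 (SE 0.052 with the block, adjusted p = 0.0963), followed by Plekhm1 (0.34, 0.225) and the pump subunit gene Atp6v1b2 (0.12, 0.537). Without run 2, 8 of the 11 were higher (median 0.030) and Atp6v1b2 stood at 0.019. These genes also serve lysosomes of other cells. Of the fusion and attachment genes 7 of 8 were above the level and 4 had higher means (median 0.048), with Gsn at 0.27 (0.254), Adam8 at 0.14 (0.440) and Sirpa at 0.23 (0.472). Without run 2 their median was 0.001, with Gsn at 0.095 and Adam8 at 0.044. Gsn was the gene of this list not above the level, which it passed on 4 arrays only, those of run 2.

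Marker lists of other cell types stood beside these values. By the brightest probe no marker passed between the genotypes. Over all their probes 1 passed with the block, the dimmer of 2 probes of Ptprc, which encodes the leukocyte surface protein CD45 and is in the macrophage list. That probe had a lowest, median and highest value of 6.96, 7.03 and 7.17 on the Hdac3 CKO arrays. On the wild type arrays these were 6.56, 6.70 and 6.89. The difference was 0.33 (SE 0.054, limma adjusted p = 0.0251 with the block, 0.30 without it and 0.366 without run 2), and the other probe gave 0.15 (adjusted p = 0.570 with the block). Traf6 and Ptprc are named after their values were seen. The mean of the macrophage markers was between 10.61 and 11.30 on the Hdac3 CKO arrays and between 10.26 and 11.20 on the wild type arrays. Of these markers 13 of 14 had higher means in Hdac3 CKO (median 0.23), beside 48.7% of all probes. The smallest p-values were those of Cx3cr1 (0.55, limma adjusted p = 0.109 with the block), Adgre1 (0.44, 0.120) and Mrc1 (0.53, 0.158). Without run 2, 11 of the 14 were higher with a median of 0.095, and the same genes had 0.55, 0.28 and 0.26. The mean of the neutrophil markers was between 6.66 and 7.33 on the Hdac3 CKO arrays and between 6.70 and 7.08 on the wild type arrays (median difference 0.044), with Ltf at 0.20 (0.307), S100a9 at 0.47 (0.391) and Cxcr2 at 0.057 (0.698). Without run 2, 3 of the 10 neutrophil markers were higher (median -0.027), with Ltf at 0.066, S100a9 at 0.081 and Cxcr2 at 0.090. By its brightest probe Ltf passed the olfactory receptor level on 2 arrays only, KO15 and KO16. Of 5 megakaryocyte and platelet markers 5 were above the level (median 0.007), with Pf4 at 0.19 (0.566), Ppbp at -0.19 (0.738) and Gp1bb at 0.036 (0.943), and without run 2 at -0.018, -0.31 and 0.073. Of 6 endothelial markers 4 were above it (median 0.041), with Emcn at 0.32 (0.529) and 0.20 without run 2, Pecam1 at 0.20 (0.538) and Kdr at -0.059 (0.734). Lymphocyte markers were above it in 0 of 5 cases (median -0.029), with Cd79b at -0.058 (0.784), Cd3e at 0.044 (0.808) and Ms4a1 at -0.050 (0.819). Of the osteoblast and stromal markers 7 of 8 had lower means in Hdac3 CKO (median -0.19), with Ibsp at -0.55 (0.115), Alpl at -0.45 (0.163) and Pdpn at -0.46 (0.177). Without run 2, 5 of the 8 were lower (median -0.11) and Alpl stood at -0.25. The members were also fitted with the macrophage marker mean as a covariate, as described at the end. Beyond that fit, the part of these cells in the members' values was not tested.

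**Figure D5:**
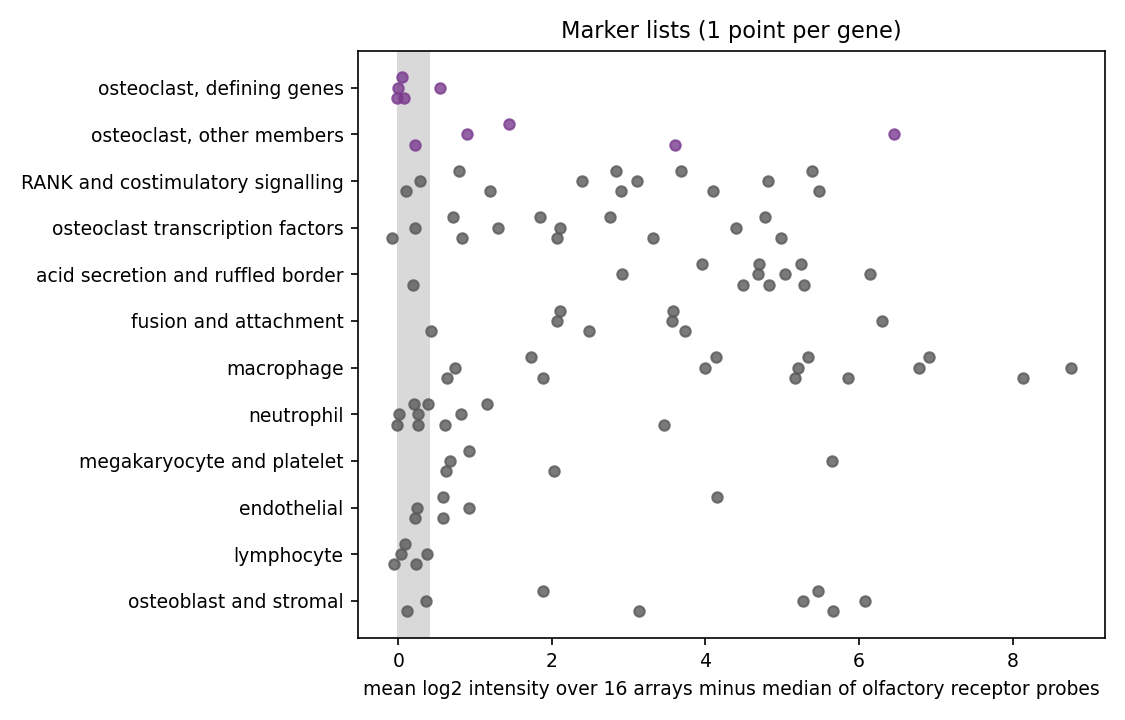
Mean log2 intensity over the 16 arrays minus the median of the olfactory receptor probes (x axis), 1 point per gene by its brightest probe, for the osteoclast members (purple) and the other lists (grey points). The grey band reaches to the highest 95th percentile of the olfactory receptor probes. Of the 5 defining osteoclast genes Oscar alone lies beyond it, at 0.54, as do all 14 macrophage markers and no lymphocyte marker.

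The genes whose pattern over the 16 arrays was most like that of a member were sought for Acp5, Ctsk and Mmp9, the members that were detected on at least 8 arrays and had an SD of at least 0.3. Arrays of a run resemble each other, so these values of Pearson's r describe 16 arrays in 5 runs and carry no test. Closest to Ctsk was Sfrp2, which encodes a secreted Wnt modulator of mesenchymal cells (r = 0.958, and 0.932 after the mean of each run was taken away). Bhlhe40, Vkorc1l1, Wwtr1 and the chemokine gene Ccl4 followed, with r from 0.913 to 0.929, and from 0.675 to 0.848 within runs. Closest to Acp5 were Taldo1, an enzyme gene of the pentose phosphate pathway (0.931, and 0.705 within runs), Gclm (0.930, 0.472), Irf5 (0.920, 0.818), Serpinb12 (0.911, 0.685) and Cyp4f18 (0.905, 0.402). Closest to Mmp9 were Adm, Parm1, Slc16a9, Rasl11b and Nectin2, with r from 0.910 to 0.950. Within runs these were between -0.488 and 0.296, so the likeness to Mmp9 lay in the difference between runs 4 and 5 and the other runs.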

How the data were processed

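Total RNA had been isolated with TRIzol and labelled with biotin, per the labels' protocols. The deposited values are probe intensities on a linear scale, quantile normalized across the 16 arrays by the authors, as the equal distributions show. For software, background treatment and filters, no statement is given in the sources used here. The lowest intensity was 53.1 to 54.2, so background remains in the values and differences of dim probes are compressed. No array was normalized again, and intensities were log2 transformed without a floor. Of 25697 probes 23978 carried 1 gene symbol of the platform annotation and 1719 are unnamed here. Through Entrez identifiers 23962 symbols were updated to the GRCm38.p6 RefSeq table.

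All probes entered limma (version 3.58.1, R version 4.3.3, functions lmFit and eBayes). A probe passed where its p, adjusted by Benjamini-Hochberg across all 25697 probes, was under 0.05. The genotype fit had no covariate, and beside it stands a fit in which the 5 runs form a fixed block. Runs and their interaction with genotype were tested with moderated F-tests. Differences are Hdac3 CKO minus wild type. The code was tested on simulated data. For a gene with several probes, the one brightest over all arrays stands for it.

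The members and lists were chosen with earlier results of these data known. Named genes are all members, Hdac3, up to 3 genes per list with the smallest p with the block and the 5 genes most like each variable detected member. The settings without WT13 and WT14 and without runs 4 and 5, the lists without run 2, the genes Tnfsf11, Tnfrsf11b, Csf1, Fcer1g, Syk and Gab2, and the motifs were chosen after values were seen. Mitf and Prdm1 were likewise named after their values were seen. The number of arrays limits the precision.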

Additional observations from a re-analysis of the deposited data

Results flagged for a closer look

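With 98 groups of 8 arrays examined for a value far from the others, 3 were found, and chance gives about 1 in 20 groups. KO47 was the highest Hdac3 CKO array for Dcstamp, at 6.46, and WT13 the highest wild type array for Ocstamp, at 6.51. Both lie within the range of the olfactory receptor probes. KO23 was the lowest Hdac3 CKO array for Clcn7, at 8.96.

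The genotype difference varied between runs, by the interaction test of limma over all probes, for 5 named genes outside the members. For Fcer1g the adjusted p was 1.59e-06: its difference was 5.80 in run 2, where WT13 and WT14 lay at the olfactory receptor level, and between -0.87 and 0.092 in the other runs. For S100a9 the adjusted p was 9.73e-05, for the stromal gene Pdpn 0.00599, for the endothelial gene Emcn 0.0232 and for Alpl 0.0340.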

How the results depend on the processing

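The 10 members did not pass between the genotypes under any setting tried, so their signs carry little. No probe passed between the genotypes without a block, whichever array was left out. With the runs as a fixed block 56 probes passed, 12 to 149 without single arrays and 5 without run 2. With a random block for the runs, with the macrophage marker mean as a covariate beside the fixed block, or with the rank sum test, the dim-probe filter, the lowest intensity subtracted, or run 2 or WT13 and WT14 left out without a block, 0 passed. The median difference of the members lay between -0.041 and 0.015 in all settings. The sign turned with the macrophage covariate for Acp5 (-0.031), Ocstamp (0.029), Calcr (0.029) and Itgb3 (0.016). Without run 2 it turned for Calcr (0.0096) and Itgb3 (0.0018), and without WT13 and WT14 for Acp5 (-0.097), Ocstamp (0.0015) and Calcr (0.0066). That last setting, without a block, leaves only Hdac3 CKO arrays in run 2. Without the whole of run 2 and with the block Acp5 was 0.022 and Ocstamp -0.0053, with no turn. Without single arrays the difference ran from -0.025 to 0.024 for Dcstamp (-0.016 to 0.016 with the block), -0.035 to 0.0076 for Calcr (-0.042 to 0.011), -0.24 to 0.027 for Mmp9, -0.049 to 0.00054 for Ocstamp (-0.050 to -0.0016) and, with the block, -0.0084 to 0.12 for Nfatc1. Between runs 5164 probes passed, 4118 to 5733 without single arrays and 3363 without runs 4 and 5, a setting chosen after seeing the data that ended the calls of Ctsk and Mmp9. In the interaction 127 probes passed, 42 to 213 without single arrays of runs 2, 3 and 5. The number of member probes above background was 8, or 7 at the 99th percentile, which Oscar did not reach on 8 arrays, and 8 against the vomeronasal receptor probes. The genotypes share no title number, so runs and not single numbers served as blocks.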
